A study of Rattus norvegicus with 22 samples.

Results

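The comparison described here set round spermatids against pachytene spermatocytes of rats that received saline only. It used 11 of the 22 arrays in the series. Of these 5 were of pachytene spermatocytes (rats 13, 16, 25, 26 and 28) and 6 of round spermatids (rats 15, 16, 17, 25, 28 and 29). The arrays were chosen by their labels, as those whose treatment was saline. A rat number here is the bare number in a sample's label. Equal numbers need not name the same animal, since 16 and 25 also occur among the cyclophosphamide samples. The other 11 arrays were of the same cell types from rats given cyclophosphamide, an alkylating drug, at 6 mg/kg. All rats were male and were gavaged 6 days per week for 4 weeks, so the saline rats shared the handling of the drug study. Strain and age were not given in the sources used here. Cells were separated by size on a gradient at unit gravity, so each sample was a fraction enriched for its cell type and not a pure population. Total RNA was labelled with Cy3 and hybridised to Agilent arrays.

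Pachytene spermatocytes are in the long prophase of the first meiotic division, when homologous chromosomes are synapsed and recombine. In that stage the X and Y are packed into the sex body and most of their genes are silenced. The cells then divide through both meiotic divisions, and the haploid products are round spermatids, which build an acrosome and a flagellum and store mRNA for the time when the nucleus condenses and transcription ends. Transcripts can pass from one stage to the next, so a level in a round spermatid holds both kept and newly made RNA. An array level is relative to the other RNA on that array, and a smaller share of expressing cells and less RNA per cell cannot be told apart.

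Levels are log2 processed signals with the array's 75th percentile set to 0. Differences are log2 levels of round spermatids minus those of pachytene spermatocytes, given ± standard error from limma, and n is 5 pachytene and 6 round spermatid arrays throughout. A gene passed where the limma p adjusted over all tested features by Benjamini-Hochberg was under 0.05. Folds on arrays tend to be compressed, and each gene is read through 1 probe unless stated. On the saline arrays the 75th percentile lay between 1086.8 and 2423.3 intensity units, 68.0% to 73.7% of probes exceeded background clearly, and saturation did not occur. Arrays of the same cell type correlated at 0.971 to 0.992 and arrays of different cell types at 0.854 to 0.919. The first principal component parted the cell types and held 81% of the variance.

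The 4 genes named as markers of these stages went with the labels on every array. H1f6, the testis-specific linker histone of spermatocytes, stood at 4.15, 3.8, 4.11, 3.73 and 3.98 on the pachytene arrays, and at -2.99 at lowest, -2.17 at the median and -1.85 at highest on the round spermatid arrays. Piwil1, a PIWI protein that binds piRNAs, stood at 0.86, 1.51, 0.94, 0.97 and 0.07 in pachytene spermatocytes and at -5.42, -3.32 and -2.34 (lowest, median, highest) in round spermatids. For both genes the groups were far apart. Tssk6, a kinase needed to shape the sperm head, stood at 0.70, 0.49, -0.17, -0.91 and -0.03 in pachytene spermatocytes and at 2.35, 2.82 and 3.1 in round spermatids. Prm2, a protamine that replaces histones late in spermiogenesis, stood at 3.90, 3.79, 3.08, 2.15 and 2.91 in pachytene spermatocytes and at 5.27, 5.77 and 5.92 in round spermatids. The cell types did not overlap for Tssk6 or Prm2, but the pachytene arrays spread more, with rat 26 lowest for both.

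**Figure D1:**
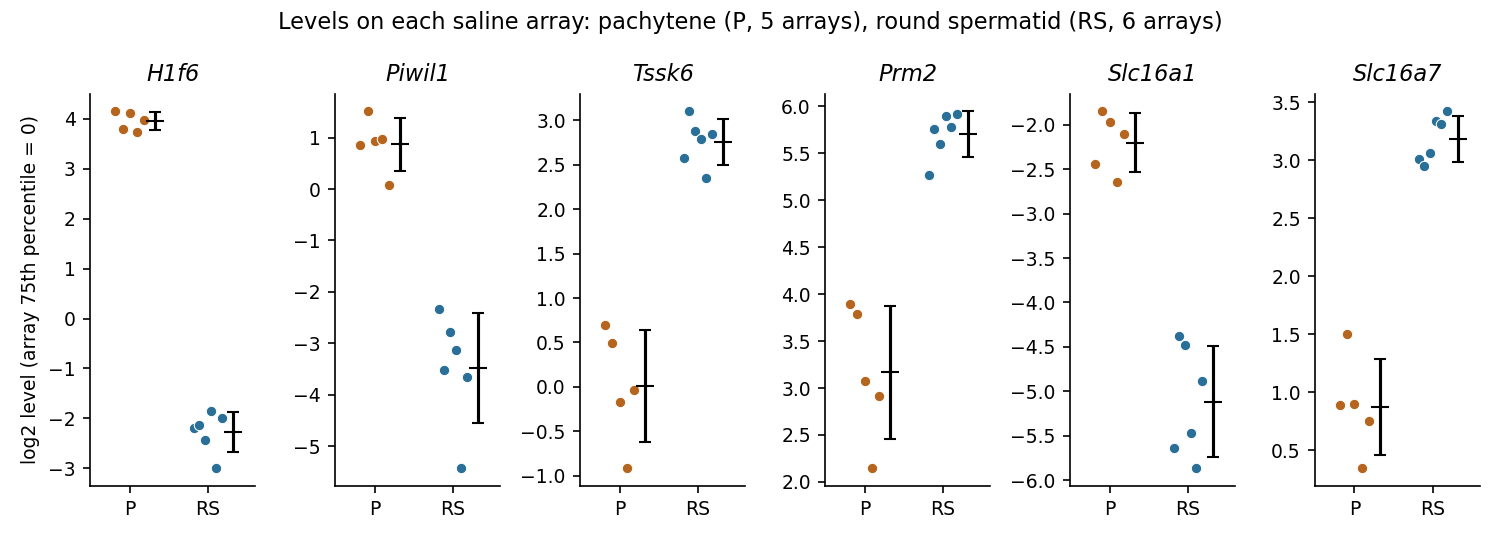
Log2 levels (vertical axis, array 75th percentile at 0) of H1f6, Piwil1, Tssk6, Prm2 and the monocarboxylate carriers Slc16a1 and Slc16a7 on each saline pachytene (P, brown) and round spermatid (RS, blue) array, with the mean and SD as a bar beside the points. Vertical scales differ between panels. For each of the 6 genes no point of one cell type reaches the other.

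Promoters of the marker genes and of 2 further spermatid genes are shown because they differ in base composition. Over all genes this feature set apart the large differences toward round spermatids. They are the 250 bases before the annotated start, 5′ to 3′ on the gene's strand, from the RefSeq promoter table of assembly GRCr8. The table held promoters for 9229 of the 11222 tested genes with a symbol, and Prm2 was not among them. Capitals mark the GC box word GGGCGG or its complement CCGCCC in H1f6, Piwil1 and Tssk6, the MYB word CAACTG or its complement CAGTTG in Piwil1, and the cyclic AMP response element (CRE) word TGACGTCA in Tnp1 and Tspy1. Tnp1 codes for a transition protein that precedes the protamines, and Tspy1 was the only Y-linked gene measured. These 5 were picked after their levels were known. They lie at chr17:41855961-41856210 (H1f6), chr12:33606584-33606833 (Piwil1), chr16:19559919-19560168 (Tssk6), chr9:82044279-82044528 (Tnp1) and chrY:218668-218917 (Tspy1), all on the minus strand.
H1f6: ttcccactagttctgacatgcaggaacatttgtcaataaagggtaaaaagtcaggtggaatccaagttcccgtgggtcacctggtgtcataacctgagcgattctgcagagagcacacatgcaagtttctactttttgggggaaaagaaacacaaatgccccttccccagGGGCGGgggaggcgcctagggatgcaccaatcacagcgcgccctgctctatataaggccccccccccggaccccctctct
Piwil1: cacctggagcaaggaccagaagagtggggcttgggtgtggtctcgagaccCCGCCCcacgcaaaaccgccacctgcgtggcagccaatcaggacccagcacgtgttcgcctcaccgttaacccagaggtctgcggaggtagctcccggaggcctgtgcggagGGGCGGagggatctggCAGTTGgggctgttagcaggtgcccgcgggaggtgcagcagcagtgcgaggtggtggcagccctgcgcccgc
Tssk6: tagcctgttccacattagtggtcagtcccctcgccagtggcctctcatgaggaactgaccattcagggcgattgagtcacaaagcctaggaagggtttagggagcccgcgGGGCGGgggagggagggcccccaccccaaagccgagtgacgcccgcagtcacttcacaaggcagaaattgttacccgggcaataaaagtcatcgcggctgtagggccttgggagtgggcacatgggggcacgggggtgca
Tnp1: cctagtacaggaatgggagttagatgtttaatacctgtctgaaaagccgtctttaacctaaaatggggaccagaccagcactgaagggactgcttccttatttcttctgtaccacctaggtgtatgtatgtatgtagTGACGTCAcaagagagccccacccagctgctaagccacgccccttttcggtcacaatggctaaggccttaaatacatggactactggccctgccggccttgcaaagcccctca
Tspy1: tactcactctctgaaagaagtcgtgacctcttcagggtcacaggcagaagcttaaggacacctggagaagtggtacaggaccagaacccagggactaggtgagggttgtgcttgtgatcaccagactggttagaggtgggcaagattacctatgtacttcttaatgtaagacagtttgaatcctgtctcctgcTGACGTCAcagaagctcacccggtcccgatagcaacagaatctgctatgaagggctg
The Piwil1 window held 17 CpG dinucleotides and 68.0% G and C, the Tssk6 window 12 and 61.2%, H1f6 7 and 54.0%, Tnp1 5 and 49.6%, and Tspy1 4 and 50%. H1f6, higher in pachytene spermatocytes, thus held fewer CpG than Tssk6, higher in round spermatids, against the course over all genes given below. The CRE word began 113 bases before the start of Tnp1 and 57 before that of Tspy1. The GC box word began 80 bases before the start of H1f6, at 200 and 88 before that of Piwil1 and at 140 before that of Tssk6.

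The fractions differed in most of what the arrays measured. Of 19836 tested features 14452 (72.9%) passed, 7369 (37.1%) toward round spermatids and 7083 (35.7%) toward pachytene spermatocytes, with a median difference of 0.01 over all features. The directions were even in number but not in size. Of all features 2492 (12.6%) were over 4-fold higher in round spermatids and 1343 (6.77%) over 4-fold higher in pachytene spermatocytes, yet beyond 16-fold there were 33 features toward pachytene spermatocytes and 0 toward round spermatids. The lowest round spermatid array lay above the highest pachytene array for 5742 features (28.9%), and the reverse held for 5632 (28.4%). Pachytene arrays lay on slides 1 to 4 and round spermatid arrays on slides 1 and 2. Slides 3 and 4 were scanned on a different day from slides 1 and 2, and held the pachytene arrays of rats 16, 26 and 28. A fit with slide as a fixed block thus compares the cell types on slides 1 and 2 only. With slide as a block 12853 features passed, within slide 1 alone 10236 and within slide 2 alone 11347, each slide with 1 pachytene and 3 round spermatid arrays. With passing so common, a count of members of a gene group is read below against these shares.

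The largest differences toward pachytene spermatocytes were in genes of several kinds. Gmcl1, a germ-cell-less homologue, stood at 2.29, 1.96, 2.47, 2.48 and 2.27 in pachytene spermatocytes and at -4.04, -3.31 and -2.94 (lowest, median, highest) in round spermatids, a difference of -5.63 ± 0.19 (limma adjusted p = 1.8e-09). Cks2, the small subunit that docks on cyclin-dependent kinases and is needed to leave meiosis I, stood at 4.36, 3.88, 4.23, 4.33 and 4.11 and at -0.71, 0.00 and 0.19. Neither gene's groups overlapped, and within each cell type Cks2 varied by less than 1 log2 unit. Pou5f2, a POU-domain factor, differed by -5.25 ± 0.58, the widest standard error among the 12 largest differences of this direction, since pachytene rat 16 stood at -1.22 and the other pachytene arrays at 1.05 to 2.50. Spidr, a scaffold of homologous recombination, differed by -4.27 ± 0.20, Tdrd5, a tudor protein of the piRNA pathway, by -4.30 ± 0.15, and H2bc1, a testis histone H2B, by -4.25 ± 0.21. The adjusted p of these 6 genes lay between 1.8e-09 and 2.32e-06.

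Of the 11222 tested genes with a symbol 99 (0.882%) were well above background on all pachytene arrays and on no round spermatid array. A fold for these genes is a lower bound. It sets the pachytene mean against the higher of the dimmest detected signal and the gene's own signal on each round spermatid array. The chloride channel Clcn2 was at least 9.29-fold higher in pachytene spermatocytes, at -3.07, -2.53, -2.69, -2.77 and -2.43 there. Sox8, a transcription factor known from Sertoli cells, was at least 8.0-fold higher, and the cytokine subunit Il23a at least 6.80-fold. Oit3, Anxa10, Agtr1b, Smoc2 and Enpp5 had bounds of 5.77-fold to 6.22-fold. All 8 were dim, with pachytene means of -3.71 to -2.70. Sertoli and Leydig cell markers were higher in the same fractions, with values given below, and their part in these genes was not tested.

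The round spermatid side held smaller single differences spread over more genes. Fhdc1, a formin-like protein that acts on actin and microtubules, stood at -2.51, -2.55, -2.79, -4.25 and -3.45 in pachytene spermatocytes and at 0.15, 0.50 and 0.69 in round spermatids, a difference of 3.58 ± 0.28 (limma adjusted p = 1.17e-07). Dnmt3l, a cofactor of DNA methyltransferases, stood at -3.20, -1.84, -2.96, -3.57 and -2.77 and at 0.42, 0.51 and 1.22. Both genes kept the groups apart, and the round spermatid arrays were the tighter. Wdhd1, a replication fork protein, differed by 3.18 ± 0.29, Capg, which caps actin filaments, by 3.20 ± 0.26, the synapsin Syn2 by 3.16 ± 0.21, the adhesion protein Kirrel3 by 3.17 ± 0.26 and the serine protease Prss58 by 3.20 ± 0.33. Among the 12 largest differences of this direction Tgm1, a transglutaminase, varied most, with an SD of 1.08 in pachytene spermatocytes and 1.11 in round spermatids.

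Well above background on all round spermatid arrays and no pachytene array were 142 of the 11222 genes (1.27%). Kcnip3, a calcium sensor that binds potassium channels and DNA, was at least 8.68-fold higher in round spermatids, the kinase Nuak1 at least 7.69-fold and the lipid kinase Pip4k2a at least 6.42-fold. Cga, the shared alpha subunit of the gonadotropins and of thyrotropin, was at least 5.95-fold higher and the sulfotransferase Sult2b1 at least 6.45-fold. The other 3 of the leading 8 were leukocyte genes: the chemokine Ccl4 (at least 7.26-fold), Cd53 (at least 6.56-fold) and Cd83 (at least 6.41-fold). Macrophage markers were higher in the same fractions, with values given with the other cell types below, and their part in these 3 genes was not tested.

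The X was the chromosome with the largest shift. Of 335 tested genes that the RefSeq table places on the X, 190 (56.7%) had more signal in round spermatids and 80 (23.9%) in pachytene spermatocytes, against 3987 (36.6%) and 4188 (38.5%) of 10886 autosomal genes. Over 4-fold higher in round spermatids were 103 X-linked genes (30.7%) against 11.4% of autosomal genes, and over 4-fold higher in pachytene spermatocytes 30 (8.96%) against 7.85%. The median difference was 0.88 on the X and -0.03 over the autosomes.

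The X-wide offset was taken on each array as the median level of these X-linked genes minus that of the autosomal genes. It was -1.83, -1.44, -1.77, -2.01 and -1.62 on the pachytene arrays of rats 13, 16, 25, 26 and 28, and -1.15, -0.84, -0.86, -1.11, -1.14 and -0.93 on the round spermatid arrays of rats 15, 16, 17, 25, 28 and 29. Every round spermatid array lay above every pachytene array. The shift of 0.73 had an exact two-sided permutation p of 0.00216 over 462 arrangements, the smallest the design allows, and an adjusted p of 0.00649 over 21 chromosomes. For 13 of the 20 autosomes the adjusted p was also under 0.05, so the test alone did not part the X from them. Their shifts ran from -0.25 on chromosome 16 to 0.33 on chromosomes 6 and 14, all smaller than that of the X. The X shift was 0.79 within slide 1, 0.80 within slide 2 and 0.79 with slide as a block. It dropped to 0.46 where genes near background were kept. The macrophage list was higher in round spermatids, and the part of macrophages and other cells in the X shift was not tested.

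**Figure D2:**
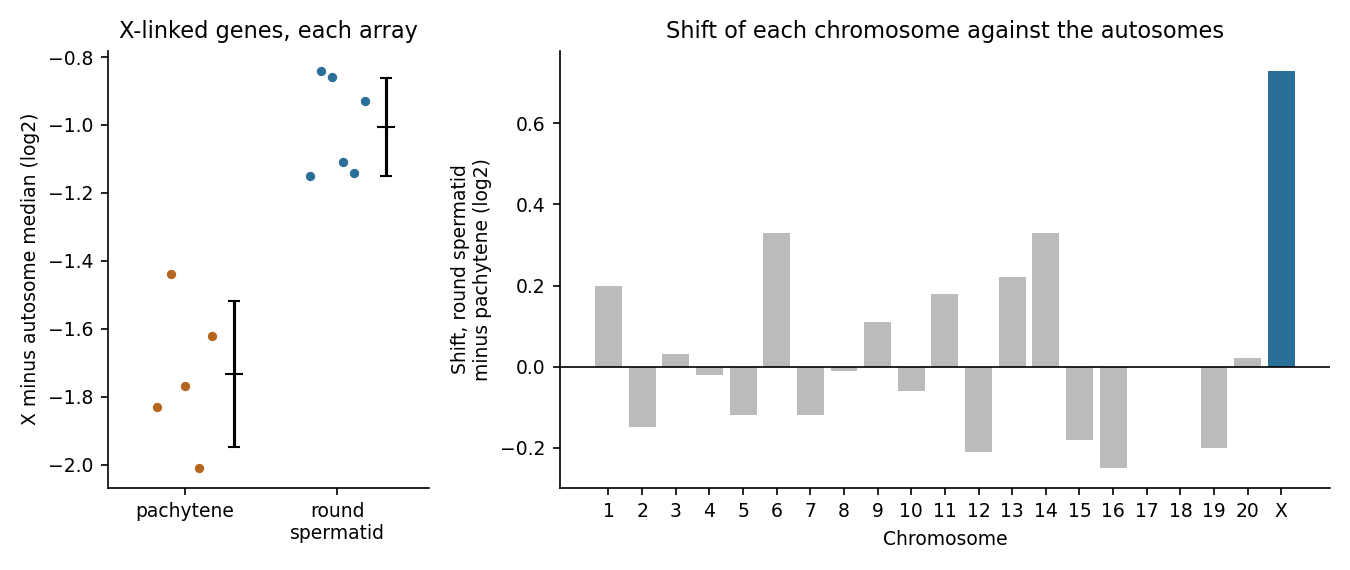
Left, the median log2 level of 335 X-linked genes minus that of autosomal genes on each array, with mean and SD: pachytene arrays lie at -2.01 to -1.44 and round spermatid arrays at -1.15 to -0.84. Right, the same measure as the difference of group means for every chromosome against the (other) autosomes, with the X at 0.73 and autosomes between -0.25 and 0.33.

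The X-linked genes furthest toward round spermatids included Arhgef6, an exchange factor for Rac and Cdc42, at -1.38, -1.83, -2.13, -3.05 and -2.34 in pachytene spermatocytes and at 0.58, 0.92 and 1.14 in round spermatids. Mageb6b1, of the MAGE family of germ-cell antigens, differed by 2.94 ± 0.33 and Rhox10, a homeobox gene of the reproductive cluster, by 2.93 ± 0.25. Gpr34 and Radx were well above background on no pachytene array and on 6 and 5 of 6 round spermatid arrays, and were at least 4.16-fold and 2.62-fold higher in round spermatids. Gpr34 is a receptor found on macrophages and microglia, and Radx protects replication forks. In the lists, X-linked Akap4, the main protein of the fibrous sheath, differed by 2.63 ± 0.23 and Taf7l, a germ-cell form of a TFIID subunit, by 1.93 ± 0.18.

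Some X-linked genes went the other way. Igsf1, an immunoglobulin superfamily membrane protein, stood at 1.17, 0.91, 1.32, 0.76 and 1.14 in pachytene spermatocytes, and at -3.26, -2.42 and -1.54 in round spermatids, a difference of -3.47 ± 0.27. Mageb16 differed by -3.06 ± 0.21 and Gpm6b, a proteolipid of neural membranes, by -2.93 ± 0.32. Slc25a53, a mitochondrial carrier, and the Kelch-like gene Klhl4 were well above background on no round spermatid array and were at least 5.42-fold and 3.19-fold higher in pachytene spermatocytes. Tspy1, the Y-linked gene, stood at -2.14, -1.24, -1.93, -2.59 and -1.85 in pachytene spermatocytes and at 0.43, 0.62 and 1.01 in round spermatids, a difference of 2.60 ± 0.21, and its groups did not overlap. On the cyclophosphamide arrays the X shift was 0.79 and the Tspy1 difference 2.96.

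The proteins that build the sex body did not move one way. Of 19 tested genes of DNA damage signalling and silencing in the sex body 8 (42.1%) were higher in round spermatids and 7 (36.8%) in pachytene spermatocytes, with a median difference of -0.06. These shares were near the 37.1% and 35.7% of all features. Toward pachytene spermatocytes went Hus1b, a germ-cell member of the checkpoint clamp (-4.52 ± 0.22), the histone H2ax, whose phosphorylated form coats the sex body (-2.36 ± 0.16), and the ubiquitin ligases Rnf8 (-2.13 ± 0.12) and Rnf168 (-1.58 ± 0.22). Toward round spermatids went Brca1, which senses unsynapsed axes (2.30 ± 0.20), Suv39h2, a testis-enriched histone H3 lysine methyltransferase (2.17 ± 0.16), and the ubiquitin protease Usp7 (1.82 ± 0.15). Brca1 was well above background on 4 of 5 pachytene arrays and Hus1b on 2 of 6 round spermatid arrays.

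Genes of the meiotic divisions lay on both sides, with shares not far from those of all features. Of 33 tested members 16 (48.5%) were higher in pachytene spermatocytes and 12 (36.4%) in round spermatids, with a median difference of -0.17. The shares of all features were 35.7% and 37.1%. Fbxo43, the anaphase-promoting complex inhibitor, differed by -5.33 ± 0.31, the kinase Cdk2 by -3.74 ± 0.19, the complex's activator Cdc20 by -3.19 ± 0.19 and the spindle motor Kif11 by -1.97 ± 0.21. On the other side, the mitotic cyclin Ccnb1 differed by 1.70 ± 0.17 and the meiotic cyclin Ccna1 by 1.33 ± 0.22, as did the microtubule depolymerase Kif2c (2.38 ± 0.16) and the kinase Plk1 (1.18 ± 0.21). For Mastl (-0.17 ± 0.18), Birc5 (-0.13 ± 0.21) and Aurka (0.09 ± 0.20) the difference did not pass.

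DNA replication genes were measured in cells that no longer replicate. Of 41 tested members 22 (53.7%) were higher in pachytene spermatocytes and 13 (31.7%) in round spermatids, with a median of -0.46. Over all features the shares were 35.7% and 37.1%. The licensing inhibitor Gmnn (-2.77 ± 0.17), the primase subunit Prim1 (-2.27 ± 0.23), the clamp loader subunit Rfc3 (-1.72 ± 0.12) and Orc5 of the origin recognition complex (-1.62 ± 0.18) led toward pachytene spermatocytes. The MCM helicase was not uniform: Mcm2 (1.64 ± 0.19) and Mcm6 (1.55 ± 0.20) were higher in round spermatids and Mcm3 (-1.29 ± 0.22) in pachytene spermatocytes. The polymerase subunit Pold3 (1.43 ± 0.13) and Orc1 (1.28 ± 0.18) were also higher in round spermatids.

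Subunits of the transcription machinery lay mostly on the pachytene side. Of 34 tested subunits of RNA polymerase II and of Mediator, the complex that joins it to transcription factors, 19 (55.9%) were higher in pachytene spermatocytes and 8 (23.5%) in round spermatids, with a median of -0.65. Against these stood 35.7% and 37.1% of all features. Med18 stood at -0.56, -0.94, -0.49, -0.56 and -0.90 in pachytene spermatocytes and at -3.79, -3.42 and -2.86 in round spermatids. Med4 differed by -2.57 ± 0.18 and the polymerase subunits Polr2g and Polr2c by -1.89 ± 0.12 and -1.82 ± 0.17. Of the Mediator members higher in round spermatids, Med12 differed by 1.57 ± 0.13 and Med14 by 2.07 ± 0.29. Both are X-linked, and Med14 was well above background on 2 of 5 pachytene arrays.

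Cytosolic aminoacyl-tRNA synthetases and their scaffold proteins moved together. Of 22 tested members 20 (90.9%) were higher in pachytene spermatocytes, against 35.7% of all features, with a median of -1.01. The phenylalanine enzyme subunit Farsa stood at 1.22, 1.67, 1.42, 1.23 and 1.35 in pachytene spermatocytes and at -1.03, -0.87 and -0.34 in round spermatids. Tars1 differed by -2.03 ± 0.19 and Nars1 by -1.96 ± 0.16. The single exception that passed was Vars1, the valine enzyme, at -0.61, -0.55, -1.03, -0.92 and -0.47 in pachytene spermatocytes and at 0.60, 0.76 and 0.86 in round spermatids (1.46 ± 0.13). Aars1 did not pass (-0.23 ± 0.15). On the cyclophosphamide arrays the median of the list was -1.15.

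Transcription regulators leaned toward round spermatids, with 16 of 27 (59.3%) higher there and 7 (25.9%) in pachytene spermatocytes. The matching shares of all features were 37.1% and 35.7%. Rfx1, a factor of ciliary gene promoters, stood at -0.95, 0.47, -0.49, -1.43 and -0.75 in pachytene spermatocytes and at 1.87, 2.21 and 2.36 in round spermatids. Fhl5, the testis coactivator of CREM, differed by 2.71 ± 0.20, the basic helix-loop-helix factor Spz1 by 2.58 ± 0.22 and Foxj1, a factor of motile cilia, by 2.41 ± 0.23. Crem itself, the master regulator of spermatid genes, differed by 1.11 ± 0.13. Toward pachytene spermatocytes went Ovol1 (-2.13 ± 0.16), the N6-methyladenosine reader Ythdc1 (-1.04 ± 0.15) and the nuclear receptor Nr2c2 (-0.96 ± 0.11). Tbp (0.20 ± 0.14) and its germ-cell relative Tbpl1 (-0.18 ± 0.16) did not pass.

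RNA-binding and poly(A) genes used to store and release mRNA were split, with 17 of 36 (47.2%) higher in pachytene spermatocytes, 10 (27.8%) in round spermatids and a median of -0.21. All features had 35.7% and 37.1%. Paip1, which helps poly(A)-binding protein promote translation, stood at -0.66, -0.26, -0.51, -0.80 and -1.19 in pachytene spermatocytes and at -5.11, -4.92 and -4.82 in round spermatids, a difference of -4.25 ± 0.15. Paip2, which opposes it, differed by 1.66 ± 0.14. Cstf2t, the germ-cell form of a cleavage factor, differed by -3.24 ± 0.15, the double-stranded RNA binder Stau1 by -2.20 ± 0.14 and the helicase Ddx6 by -2.14 ± 0.16, while the poly(A) polymerase Tent2 differed by 1.56 ± 0.12. The translational repressor Pum2 differed by -1.69 ± 0.17.

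The acrosome and flagellum lists leaned toward round spermatids, against 37.1% of all features higher there. In the acrosome list 24 of 31 (77.4%) were higher in round spermatids and 3 (9.68%) in pachytene spermatocytes, with a median of 1.82. Garin1a and Garin1b, Golgi proteins that bind RAB2 in acrosome formation, differed by 2.91 ± 0.28 and 2.73 ± 0.20, Ccin, the calicin of the perinuclear theca, by 2.69 ± 0.18 and the actin relative Actl9 by 2.60 ± 0.22. The exceptions were proteins of membrane traffic and signalling: Vps54 of the retrograde tether complex (-2.20 ± 0.32), the Arf regulator Smap2 (-0.96 ± 0.11) and the kinase subunit Csnk2a2 (-0.74 ± 0.13). In the list of flagellum structures 17 of 30 (56.7%) were higher in round spermatids and 3 (10%) in pachytene spermatocytes. Fscn3, a testis fascin, stood at 0.75, 0.72, -0.13, -0.74 and -0.02 in pachytene spermatocytes and at 3.06, 3.25 and 3.47 in round spermatids. The 3 on the pachytene side were axoneme genes, Tcte1 (-0.88 ± 0.21), Dnah1 (-0.76 ± 0.13) and Dnali1 (-0.61 ± 0.14).

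For the manchette, the microtubule skirt that shapes the nucleus, and the neck that joins head and tail, 18 of 33 (54.5%) were higher in round spermatids and 6 (18.2%) in pachytene spermatocytes. Shares of all features were 37.1% and 35.7%. Spem1 (2.72 ± 0.28), Spag6 (2.70 ± 0.25), Pmfbp1 of the head-tail joint (2.57 ± 0.17) and Tbc1d21 (2.52 ± 0.17) led. Centrobin, Cntrob, went the other way (-3.09 ± 0.20), together with the ubiquitin-conjugating enzyme Ube2b (-1.54 ± 0.11) and the intraflagellar transport proteins Ift20 (-1.12 ± 0.13) and Ift88 (-1.0 ± 0.13). In the centriole list 11 of 21 (52.4%) were higher in pachytene spermatocytes and 5 (23.8%) in round spermatids. Against these stood 35.7% and 37.1% of all features. Ccp110, a cap of the centriole's end whose removal lets a cilium form, differed by -4.63 ± 0.27 and its partner Cep97 by -2.03 ± 0.27. Tubgcp5 of the microtubule nucleating ring differed by -2.74 ± 0.16, and Cep57 by 2.25 ± 0.15 toward round spermatids.

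Sperm channels and their partners had 14 tested members, 7 (50%) higher in round spermatids and 1 (7.14%), Atp2b4 (-0.47 ± 0.20), in pachytene spermatocytes. The matching shares of all features were 37.1% and 35.7%. The adjusted p of Atp2b4 crossed 0.05 on leaving out any of 8 single arrays. Lrrc52, a potassium channel partner, differed by 2.57 ± 0.18, Catsper3 by 2.36 ± 0.18 and its calcium-sensing partner Efcab9 by 2.15 ± 0.18, while Catsperd (-0.43 ± 0.22), Catsper4 (-0.17 ± 0.24) and Catsperg (-0.05 ± 0.17) did not pass.

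**Figure D3:**
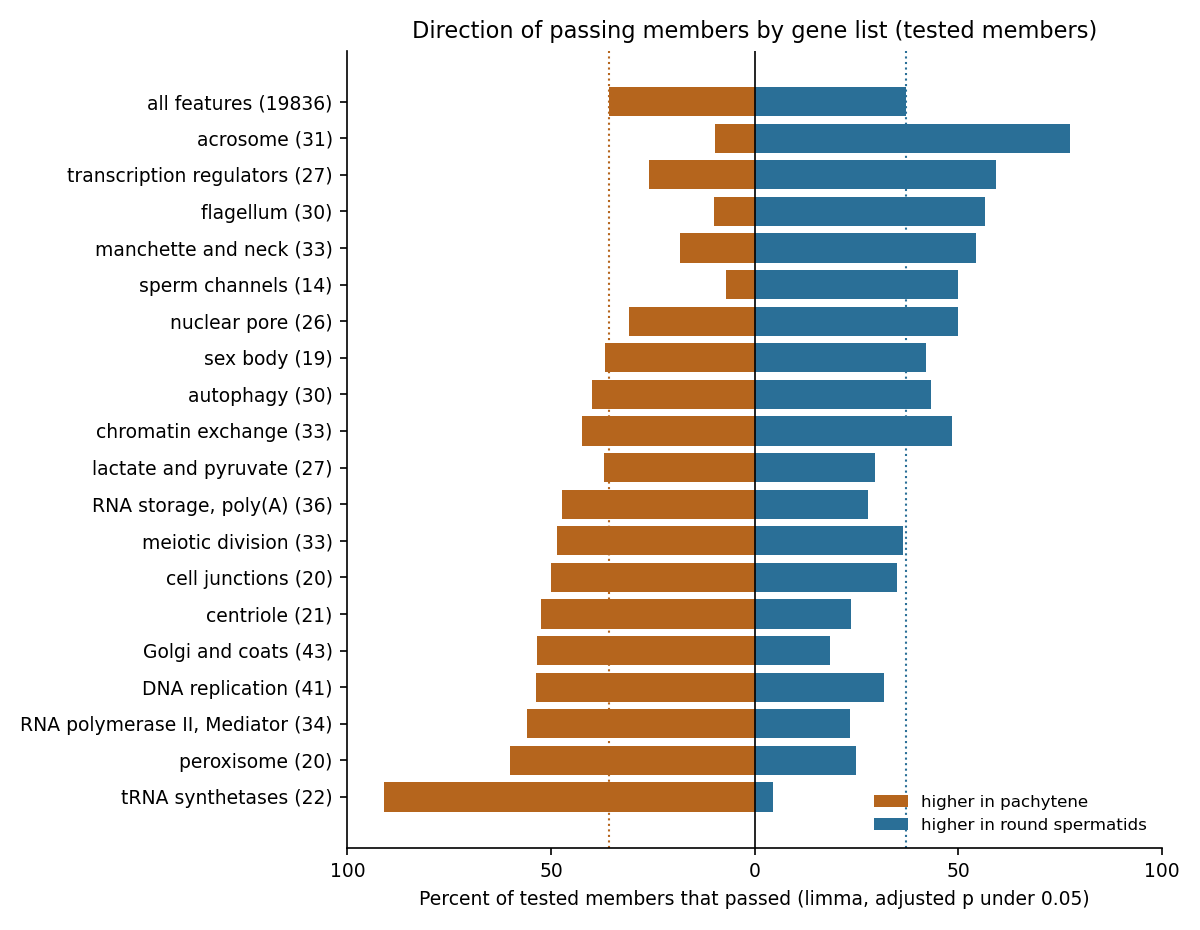
Share of the tested members of each gene list (number tested in brackets) that passed and were higher in pachytene spermatocytes (brown, left) or in round spermatids (blue, right), with the shares over all 19836 features as the top bar and dotted lines. tRNA synthetases reach 90.9% on the pachytene side and acrosome genes 77.4% on the round spermatid side, while sex body, autophagy and chromatin lists lie near the shares of all features or on both sides.

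Chromatin genes of the exchange from histones to protamines lay on both sides, with 16 of 33 (48.5%) higher in round spermatids, 14 (42.4%) in pachytene spermatocytes and a median of 0.05, but the members were far apart. Over all features the shares were 37.1% and 35.7%. Next to H1f6 and H2bc1, the poly(ADP-ribose) polymerase Parp2 (-3.24 ± 0.21), the high-mobility-group protein Hmgb2 (-3.16 ± 0.14) and the glycohydrolase Parg (-2.72 ± 0.24) were higher in pachytene spermatocytes. Nutm1, a partner of the acetyltransferase p300 in spermatids (2.82 ± 0.24), Cdyl, a chromodomain protein (2.54 ± 0.20), and the spermatid linker histone H1f7 (2.46 ± 0.20) were higher in round spermatids. Kat8 (0.05 ± 0.13), Ipo4 (-0.07 ± 0.12) and H1f4 (-0.20 ± 0.19) did not pass.

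Genes of membrane traffic and of the nuclear pore lay on both sides. For comparison, 37.1% of all features were higher in round spermatids and 35.7% in pachytene spermatocytes. Of 43 tested Golgi and coat genes 23 (53.5%) were higher in pachytene spermatocytes and 8 (18.6%) in round spermatids, although the acrosome grows from the Golgi in these cells. Arf5 (-2.21 ± 0.16) and Sec31b (-1.99 ± 0.20) were lower in round spermatids. Gosr1, a Golgi SNARE well above background on 4 of 5 pachytene arrays and on no round spermatid array, was at least 1.31-fold higher in pachytene spermatocytes. In the other direction, Sec23a of the COPII coat stood at -0.12, -0.28, -0.53, -0.77 and -0.64 in pachytene spermatocytes and at 1.82, 2.13 and 2.26 in round spermatids. Of 26 nuclear pore genes 13 (50%) were higher in round spermatids, led by the transmembrane ring protein Ndc1 (1.95 ± 0.15) and Nup54 (1.62 ± 0.32), and 8 (30.8%) in pachytene spermatocytes, led by the basket protein Tpr (-2.63 ± 0.14) and Nup205 (-1.44 ± 0.14).

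Of 20 peroxisome genes 12 (60.0%) were higher in pachytene spermatocytes and 5 (25.0%) in round spermatids. All features had 35.7% and 37.1%. The biogenesis factor Pex3 differed by -2.88 ± 0.21 and the fatty acid transporter Abcd3 by -2.21 ± 0.22, while Pex5l differed by 2.28 ± 0.19. Abcd2, a transporter related to Abcd3, was well above background on no round spermatid array and was at least 4.64-fold higher in pachytene spermatocytes. Of 30 autophagy genes 13 (43.3%) were higher in round spermatids and 12 (40.0%) in pachytene spermatocytes. These shares were near the 37.1% and 35.7% of all features, so the genes named next are single members. The receptor Nbr1 (2.34 ± 0.16) and Wipi1 (2.07 ± 0.18) lay on the round spermatid side, and Fundc2 (-2.41 ± 0.19), the scaffold Rb1cc1 (-2.17 ± 0.11) and the lipid kinase Pik3c3 (-1.75 ± 0.14) on the pachytene side.

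Both germ cells live on lactate and pyruvate that Sertoli cells release. Over the list for this route 8 of 27 tested genes (29.6%) were higher in round spermatids and 10 (37.0%) in pachytene spermatocytes, near the 37.1% and 35.7% of all features, with a median of -0.02, so the genes below are single members and not a course of the list. Slc16a1, the monocarboxylate transporter MCT1, stood at -2.44, -1.85, -1.97, -2.65 and -2.10 in pachytene spermatocytes and at -5.86, -5.18 and -4.38 in round spermatids (-2.92 ± 0.28). Slc16a7, the higher-affinity MCT2, stood at 0.89, 1.5, 0.90, 0.35 and 0.75 and at 2.95, 3.18 and 3.42 (2.30 ± 0.18). Slc16a1 was lower and Slc16a7 higher on every round spermatid array than on any pachytene array. Of the mitochondrial pyruvate carrier, Mpc1 stood at 2.41, 1.88, 2.33, 2.34 and 2.16 in pachytene spermatocytes and at 0.21, 0.43 and 0.63 in round spermatids. Its germ-cell paralog Mpc1l, which is X-linked, stood at 0.44, 0.62, 0.26, -0.97 and -0.25 and at 2.28, 2.63 and 3.22. The kinases that turn pyruvate dehydrogenase off were higher in round spermatids, Pdk1 by 2.72 ± 0.20, Pdk3 by 2.52 ± 0.19 and Pdk2 by 1.21 ± 0.15. Pdk3 is also X-linked, and the part of the X shift in Mpc1l and Pdk3 was not tested. The neuronal-type glucose transporter Slc2a3 (-2.78 ± 0.21) and the lactate dehydrogenase subunit Ldhb (-2.24 ± 0.18) were lower in round spermatids. Sertoli cell markers were higher in the pachytene fractions, as given below. The part of Sertoli cells in the differences of Slc16a1, Slc2a3 and Ldhb was not tested. Ldha (0.06 ± 0.14) and the germ-cell form Ldhc (-0.18 ± 0.14) did not pass.

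Paralog pairs in which a germ-cell gene stands beside a general one followed several courses over the 20 pairs measured. Mpc1l and Mpc1 went opposite ways, as given above, and so did the glycolytic kinases Pgk2 (1.46 ± 0.13) and Pgk1 (-0.82 ± 0.17). Gapdhs differed by 2.64 ± 0.22 while Gapdh did not pass (-0.25 ± 0.12). The meiotic proteasome subunit Psma8 was higher in pachytene spermatocytes (-4.11 ± 0.24) and its general form Psma7 did not pass (-0.36 ± 0.17). Both members were higher in round spermatids for Aldoart2 (2.12 ± 0.14) with Aldoa (1.73 ± 0.12), Papolb (1.38 ± 0.15) with Papola (1.63 ± 0.19), Gtf2a1l (0.47 ± 0.15) with Gtf2a1 (1.76 ± 0.16) and Hmgb4 (1.57 ± 0.20) with Hmgb1 (0.69 ± 0.19). Cstf2t and the cytochrome Cyct (-1.15 ± 0.12) were higher in pachytene spermatocytes, as were their general forms Cstf2 (-1.26 ± 0.19) and Cycs (-0.46 ± 0.14). Of the pairs whose general gene is X-linked, Pgk1 and Cstf2 were higher in pachytene spermatocytes, while Pdha1 (-0.02 ± 0.24) and Timm8a1 (-0.46 ± 0.24) did not pass. Related genes can share probe signal, which was not tested here.

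For some genes the answer depended on which probe was read. Of 1403 genes with at least 2 probes well above background on all 11 arrays, 150 had probes that passed in opposite directions and 717 had all probes pass in 1 direction. For Eif4e, the cap-binding protein, 1 probe stood at 2.84, 2.38, 2.18, 2.04 and 2.05 in pachytene spermatocytes and at 4.17, 4.50 and 4.65 in round spermatids (2.16 ± 0.16). The other stood at -2.29, -1.43, -1.63, -2.54 and -1.83 and at -4.93, -4.65 and -3.60 (-2.50 ± 0.26). The groups overlapped for neither probe. The pairs of differences were 2.04 ± 0.19 and -3.0 ± 0.16 for the mitochondrial carrier Slc25a44, 2.74 ± 0.21 and -2.01 ± 0.17 for the phosphatase Ppm1l, 1.98 ± 0.13 and -2.29 ± 0.24 for Zbtb11, and 2.78 ± 0.30 and -1.97 ± 0.22 for Atg14, a subunit of the autophagy lipid kinase. On the cyclophosphamide arrays both probes of each of these 5 genes kept their direction, for Eif4e at 2.37 and -2.77. Both probes of each gene carried the same RefSeq accession in the files, and where each lies in the transcript was not analysed here. The list counts above and below read Eif4e, Atg14, Papola, Cep290, Ccnc, Gabarapl1 and Wt1 through the brighter of such probes.

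**Figure D4:**
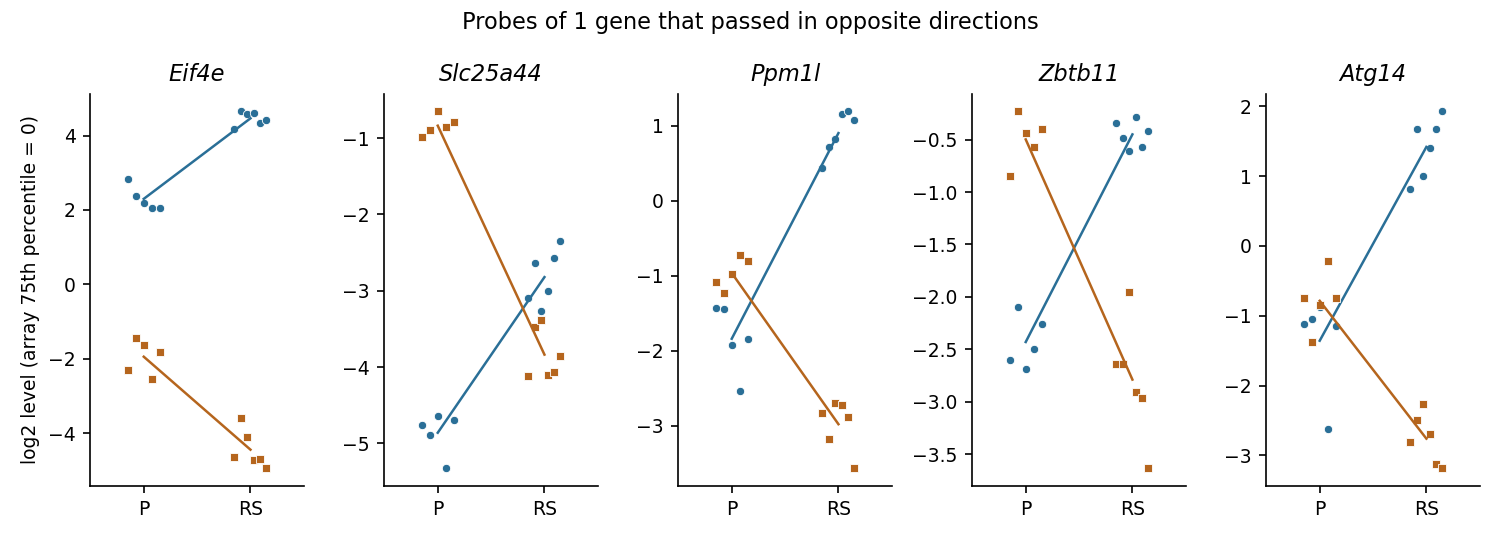
Log2 levels (array 75th percentile at 0) of 2 probes each of Eif4e, Slc25a44, Ppm1l, Zbtb11 and Atg14 on every saline array, with lines joining the group means; blue circles are the probe that was higher in round spermatids (RS) and brown squares the probe that was higher in pachytene spermatocytes (P). Levels of different probes are not comparable, and the slopes, such as 2.16 and -2.50 for Eif4e, are what is shown.

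Promoter base composition differed for the genes far higher in round spermatids, and not for those far higher in pachytene spermatocytes. Among genes over 4-fold higher in round spermatids the window of 250 bases held a median of 6.0 CpG dinucleotides (1075 genes), against 16.0 in genes over 4-fold higher in pachytene spermatocytes (722 genes) and 16.0 in the other 7432 tested genes with a promoter. The share with 5 or fewer CpG was 46.8%, 15.5% and 17.4% in the same order, and 50.2% over all 33469 promoters of the table. Among genes well above background on all 11 arrays, an alternative chosen after seeing the data, the medians were 6.0, 17.0 and 16.0. The medians of the round spermatid group were 6.0 on the X and 6.0 on the autosomes. These are descriptions over genes, which are not independent replicates.

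Sorted by CpG count, 28.7% of the 941 genes with 0 to 2 CpG and 24.1% of the 965 with 3 to 5 were over 4-fold higher in round spermatids. The share was 12.9% at 6 to 10 CpG and 6.42% to 7.85% above that. The share over 4-fold higher in pachytene spermatocytes stayed between 4.68% and 9.07% over all 6 ranges. The ETS-family word CCGGAAG, searched on both strands, lay in 5.02% of the promoters over 4-fold higher in round spermatids, in 14.5% of those over 4-fold higher in pachytene spermatocytes, in 15.6% of the other tested and in 7.27% of all promoters. The GC box word lay in 38.3%, 54.2%, 55.8% and 30.5% in the same order. Both words hold a CpG, as does the CRE word, and whether this bears on their shares was not tested. The CRE word, which is shown in the Tnp1 and Tspy1 windows, was about as frequent in each tested group, at 2.88%, 2.49% and 2.97%, and lay in 1.59% of all promoters. The MYB word, marked in the Piwil1 window, was likewise about as frequent in each, at 10.8%, 10.2% and 9.22%. It lay in 11.4% of all promoters.

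**Figure D5:**
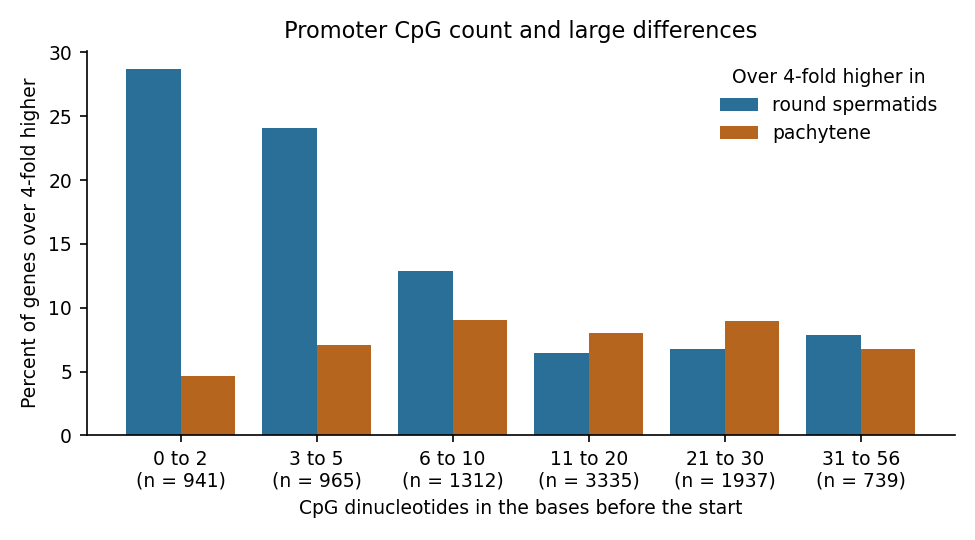
Percent of tested genes that were over 4-fold higher in round spermatids (blue) or in pachytene spermatocytes (brown), by the number of CpG dinucleotides in the 250 bases before the start. The blue bars drop from 28.7% at 0 to 2 CpG to 6.42% at 11 to 20, while the brown bars stay between 4.68% and 9.07%.

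Markers of other testis cells differed between the fractions. For comparison, 37.1% of all features were higher in round spermatids and 35.7% in pachytene spermatocytes. All 14 tested macrophage markers were higher in round spermatids (median 2.52), and the summed linear signal of the 15 on the array, in units of the array's 75th percentile, was 10.3 to 22.6 on the pachytene arrays and 54.7 to 83.3 on the round spermatid arrays. Most of that sum came from Aif1, a calcium-binding protein of macrophages, and without it the sums were 1.23 to 1.79 and 4.95 to 14.7. Lyz2, a macrophage lysozyme, stood at -1.07, -2.60, -1.41, -2.19 and -1.58 in pachytene spermatocytes and at 0.16, 1.2 and 1.99 in round spermatids. Of 18 tested Sertoli cell markers 13 were higher in pachytene spermatocytes and 1, Wt1, in round spermatids. Wt1 was read through its brighter probe, and its probes passed in opposite directions (1.9 and -2.77). The summed signal of 19 Sertoli cell markers was 64.0 to 84.6 against 30.4 to 41.6. Without the brightest member, the transferrin gene Tf, it was 33.7 to 51.4 against 4.33 to 11.2. All 10 tested Leydig cell markers were higher in pachytene spermatocytes, with sums of 9.0 to 13.6 against 2.34 to 4.99. Of 8 peritubular myoid markers 7 were higher in round spermatids, with sums of 3.05 to 5.36 against 6.00 to 12.1. Endothelial and red cell markers each had 1 higher member in either direction. None of the summed levels of the first 4 lists overlapped between the cell types.

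Cell junction genes, many of them Sertoli cell genes, had 10 of 20 higher in pachytene spermatocytes and 7 in round spermatids. Across all features 35.7% were higher in pachytene spermatocytes and 37.1% in round spermatids. The 7 of 20 lay near the share of all features, so the genes named on that side are single members. The pachytene side was led by the gap junction protein Gja1 (-3.32 ± 0.28) and Cldn11 (-2.87 ± 0.21). On the round spermatid side were the adhesion gene Cadm2 (2.64 ± 0.21) and Lamb3 (2.62 ± 0.19), a laminin chain of the adhesion to Sertoli cells. How far other cells contributed to these counts was not tested.

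Markers of germ cell stages were compared as well. Of all features 37.1% were higher in round spermatids and 35.7% in pachytene spermatocytes. Of 13 late spermatid markers 12 (92.3%) were higher in round spermatids, with summed signals of 961 to 1530 there and 418 to 701 in pachytene spermatocytes. Some of these genes, such as Akap4 and Odf1, were also counted in the flagellum list, so their signal does not part late from round spermatids. On the pachytene arrays the mean level of the 21 tested round spermatid markers was 2.62, 2.74, 2.29, 1.76 and 2.24 for rats 13, 16, 25, 26 and 28, against 4.06 to 4.54 on the round spermatid arrays, so rat 26 had the lowest level of spermatid markers among the pachytene arrays. Of 12 tested spermatogonial markers 9 were higher in round spermatids, among them the receptors Gfra1 (2.83 ± 0.26) and Ret (2.27 ± 0.16), and Id4 alone was higher in pachytene spermatocytes (-2.49 ± 0.18). The factor Zbtb16 was well above background on no pachytene array and was at least 2.66-fold higher in round spermatids. In the pachytene list 11 of 18 were higher in pachytene spermatocytes, while Pgk2, Ccna1, Mybl1 (0.99 ± 0.18) and Meiob (0.89 ± 0.18) were higher in round spermatids.

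The genes that varied least between the cell types give the floor of the comparison. Puf60, a splicing factor, stood at 1.28, 1.43, 1.36, 1.34 and 1.26 in pachytene spermatocytes and at 1.15, 1.38 and 1.46 in round spermatids, and its 95% interval ran from -0.22 to 0.23. Rc3h2, Nelfe, Vdac3, Mtrex and Hdgfl3 had differences of -0.02 to 0.02. Under quantile normalization Nelfe differed by -0.26 (limma adjusted p = 0.031), so its place here depends on the scaling. The mitochondrial porin Vdac3 stood at 5.93, 5.55, 5.63, 5.77 and 5.59 and at 5.59, 5.72 and 5.80. In all 2512 features (12.7%) had an interval within 1.5-fold in either direction.

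The same contrast on the other 11 arrays, of cyclophosphamide rats, gave 15931 of 19822 features passing (80.4%). Of the features that passed in saline rats and were tested there 13959 of 14442 (96.7%) passed in the same direction and 0 in the opposite one. H1f6 differed by -6.40, Piwil1 by -3.95, Tssk6 by 3.45 and Prm2 by 3.14 on those arrays. In limma no feature passed a test of the difference of the contrast between treatments (smallest adjusted p = 0.634), with 1512 (7.63%) at an unadjusted p under 0.05.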

How the data were processed

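RNA of round spermatids and pachytene spermatocytes was read on single-colour arrays, and the deposited scanner files hold each spot's processed signal as an intensity. Per the file headers Feature Extraction 10.7.3.1 had subtracted background, while the submitters' processing notes name version 11.5.1.1, and arrays were not scaled to each other. The deposited value table was not used.

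Controls and outlier spots were left out, the 58717 other spots were averaged to 30367 probes, and the log2 signal minus the array's 75th percentile was analysed. A RefSeq accession named 17998 probes through assembly GRCr8. Each gene kept its probe with the highest mean, and features were tested where more than 0.5 of the usable spots were well above background on all but at most 1 array of either group. The test was limma 3.58.1 (lmFit, eBayes) in R 4.3.3, with statmod 1.5.0 for random blocks, on the 11 saline arrays, with p adjusted by Benjamini-Hochberg and a threshold of 0.05. The X shift was tested by exact permutation over arrays. Tables came from pandas 2.3.3 and numpy 2.4.6 under Python 3.11.15, drawings from matplotlib 3.10.9. On simulated data of 19836 features, of which only a small share was changed, changes of 1 and 2 (log2) were recovered at 57% and 95%. In the data 72.9% of features passed, which makes the adjustment less strict, so these rates do not describe this comparison.

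Members and gene lists were chosen with earlier results of these data known. Named genes were the 12 largest differences in each direction among genes well above background on all 11 arrays, the 8 largest bounds in each direction, and in each list up to 4 passing members each way and up to 3 not passing. They also took 5 X-linked genes each way, measured Y-linked genes, paralog pairs, the 4 stage markers, 5 genes with opposed probes and 6 genes each for spread and for steadiness. Spermatid genes with printed promoters, Taf7l, Akap4, Crem, Paip2, Pum2 and other list members beyond that rule were named after their values were seen. The labels give each sample a bare number and do not say that samples came from separate animals. The p-values measure the spread between these samples. Alternatives changed scaling, background, filter, blocks, probe choice and arrays.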

Additional observations from a re-analysis of the deposited data

Results flagged for a closer look

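Of 426 sets of 5 or 6 arrays checked for a single array far from its group by Dixon's criterion, 24 held one. Chance gives such a gap in about 1 of 20 sets.

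Among the pachytene arrays, rat 26 stood apart for 5 genes, at -2.62 for Atg14 (next array -1.14), 1.63 for Parp2, -2.83 for Prss58, 1.38 for Rb1cc1 and -0.30 for Sec31b. Pachytene rat 16 stood apart for 4, at -4.18 for Cep97 (next array -3.38), 0.68 for H2bc1, -0.62 for Tent2 and 2.27 for Usp7. Pachytene rat 13 was high for Gprc5a (0.03, next array -4.28) and Peds1 (-1.53, next array -4.64).

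Among the round spermatid arrays, rat 16 stood apart at 1.23 for Apoc2 (next array -3.54), 3.32 for Dnali1, -0.09 for Ift88 and 4.16 for Papola (next array 3.44). Rat 29 stood apart at -8.02 for Agtr1b, 2.20 for Catsper3, -4.04 for Gmcl1 and -2.87 for Parp2. Rat 17 stood at -4.57 for Cfap43 (next array -2.23) and 1.87 for Rfx1, rat 15 at 0.66 for Gprc5a (next array -2.33) and 4.16 for Kif2c, and rat 28 at 0.08 for Birc5 (next array 0.93). Agtr1b was not well above background on these arrays.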

How the results depend on the processing

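The count of 14452 passing features was 14815 with quantile normalization, 14320 with median centring, 13809 with normexp on the median signal (chosen after seeing the data, since the files do not hold the mean signal and the planned version was not run), 15429 without the filter on dim probes, 12400 on features well above background on all 11 arrays and 14956 with all 22 arrays fitted. Leaving out 1 array at a time gave 14026 to 14374 in all, 7069 to 7381 higher in round spermatids, 6804 to 7305 higher in pachytene spermatocytes and an X shift of 0.66 to 0.80. Requiring over 2-fold left 9180 and over 4-fold 3835, by construction. The X shift was 0.71, 0.73 and 0.61 under the 3 scalings in the order above. It was 0.74 on genes well above background on all 11 arrays, with the same exact permutation p of 0.00216.

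With the rat number as a fixed replicate block, which rests on the 3 numbers found in both cell types, 12514 features passed (6595 and 5919 in the 2 directions) and the X shift was 0.58. As a random replicate block 14592 passed. Deviations of same-numbered samples correlated at -0.006 (rat 16), -0.092 (rat 25) and 0.375 (rat 28), so the numbers were not taken to pair the samples.

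Differences turned sign, with a pass in the main or the alternative setting, for 8 of the 343 genes covered by the naming rule. The mean of a gene's probes gave -0.47 for Kitlg, -0.29 for Ccnc, -0.17 for Eif4e and -0.45 for Cep290, since their probes disagree. Ccnc and Cep290 passed in both settings, in opposite directions. Slide 2 alone gave 0.05 for Atp2b4 and slide 1 alone 2.84 for Cpne8. The fixed replicate block gave 1.11 for Lat, and quantile normalization gave -0.26 for Nelfe. Of the 246 that passed, 2 lost the call when 1 array was left out: Kdr without pachytene rat 16, and Atp2b4. Counts of small lists were lowest within single slides, where 4 arrays remain and the lone pachytene array is assumed to vary like the round spermatid arrays, for example 12 of the 22 replication genes higher in pachytene spermatocytes. The number of arrays and the compressed folds of dim probes limit the precision.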

Other observations

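Some genes varied more between arrays of 1 cell type than between cell types. Among genes well above background on all 11 arrays the median SD was 0.28 over the pachytene arrays and 0.23 over the round spermatid arrays, and the adaptor of T-cell receptor signalling Lat reached 2.30 and 1.99. Lat stood at 0.44, -4.61, -0.25, 1.36 and -1.29 on pachytene rats 13, 16, 25, 26 and 28, and at -0.73, -3.19, 0.65, 0.83, -0.46 and -3.95 on round spermatid rats 15, 16, 17, 25, 28 and 29. The arrays numbered 16 were low for Lat in both cell types, and the arrays numbered 25 and 28 were not.

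Kremen1, a receptor of the Wnt inhibitor Dickkopf, differed by 3.06 ± 1.01 (limma adjusted p = 0.0152), but its round spermatid arrays fell into high values of 3.52 to 3.78 on rats 16, 17 and 25 and low values of -0.80 to -0.21 on rats 15, 28 and 29. Gprc5a, an orphan receptor, stood near 0 on pachytene rat 13 (0.03) and on round spermatid rat 15 (0.66), and at -5.17 to -2.33 on the other 9 arrays. Peds1, a desaturase of plasmalogen synthesis, stood at -1.53 on pachytene rat 13 and at -5.81 to -4.64 on the other pachytene arrays. In round spermatids it stood at -2.43 on rat 15, -2.55 on rat 17 and -4.94 to -4.40 on the others. Cpne8 stood at -4.18 on round spermatid rat 16 and -3.83 on rat 28, and at -0.66 to 0.61 on the other round spermatid arrays. Kcng2 stood at -3.38 to -2.56 on round spermatid rats 16, 28 and 29 and at -0.11 to 1.26 on rats 15, 17 and 25. Pank3 stood at -5.79 and -5.19 on round spermatid rats 15 and 17 and at -2.43 to -1.17 on the others. Apoc2 stood at 1.23 on round spermatid rat 16 and at -4.48 to -3.54 on the others. Nnmt stood at 0.32 on pachytene rat 13, at -3.84 on pachytene rat 16 and at -3.69 and -3.73 on round spermatid rats 16 and 28. Levels of these genes therefore stood several log2 units apart between arrays of one group.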
